A study of Mus musculus with 18 samples.

Results

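The nuclear receptor superfamily, to which *Nr2f6* belongs, was followed in RNA of CD3+ TILs from B16-OVA melanomas. Its members were chosen by gene symbol, with the NR4A group left out and with earlier results of these data known. All 43 genes chosen were among the 37236 genes of the table. B16-OVA is a mouse melanoma line that expresses ovalbumin as a tumor antigen. The mice were of the C57BL/6 strain and either *Nr2f6*+/+ or *Nr2f6*-/-, the latter back-crossed to this strain. *Nr2f6* is missing in all cells of these mice and not in T cells alone, and mice of the tumor experiments were 8 to 12 weeks old at injection. Each mouse carried a tumor grown from 500000 cells given s.c. and received 0.5 mg injections of a PD-L1 blocking antibody or of the control antibody IgG2b from d3 until tumors were taken at d14. The groups were *Nr2f6*+/+ with IgG2b (n = 3), *Nr2f6*-/- with IgG2b (n = 3), *Nr2f6*+/+ with anti-PD-L1 (n = 6) and *Nr2f6*-/- with anti-PD-L1 (n = 6), 18 samples in all. T cells had been enriched with CD4 and CD8 beads, pooled and sorted for CD3, so that every value is an average over a mixture. Whether each sample came from a separate mouse is not stated in the labels, and p-values measure the spread between these samples. The questions asked were which members these cells express, whether another member is higher where *Nr2f6* is lost, and whether the blockade moves any of them.

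Nuclear receptors are transcription factors with a zinc finger domain that binds DNA and a domain that binds ligand, and many are switched by small lipophilic ligands such as steroids, retinoids, thyroid hormone, oxysterols or fatty acids. Steroid receptors act mostly as homodimers, many other members pair with a retinoid X receptor (RXR), and orphan receptors such as the COUP-TF genes *Nr2f1*, *Nr2f2* and *Nr2f6* have no settled natural ligand. Without an activating ligand many members recruit corepressors, and with agonists they recruit coactivators. In T cells NR2F6 is known as a repressor of cytokine genes, RORα as a factor of helper T cells and innate lymphoid cells, and the glucocorticoid receptor (*Nr3c1*) as the mediator of the immunosuppressive action of glucocorticoids.

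Values are read counts per gene divided by a size factor per library, called normalized counts here. The library kit reads transcript ends, so that the number of reads of a transcript does not grow with its length, and levels of different genes are set side by side on this scale without a length correction. The libraries held 12473391 to 18609482 reads on genes, and 3 reads, taken as the floor of detection, were worth 2.46 to 3.64 normalized counts. Libraries were numbered in 2 sets. Every group has its replicates 1 to 3 in the first set, while in the second set there are replicates 4 to 6 with anti-PD-L1 and no IgG2b libraries. The sorted population was checked on its markers: *Cd3d* stood at 9001 to 21244 normalized counts over the 18 samples, and the B cell gene *Cd79a* had 0 reads in all of them. *Cd79b*, its partner in the B cell receptor, reached 192 with IgG2b and 150 with anti-PD-L1 in single samples. RNA of macrophages was present as well, with *Lyz2*, a lysozyme of macrophages and monocytes, at 2925 to 7325 in the IgG2b samples and 296 to 1979 in the anti-PD-L1 samples. In these bulk samples fewer cells of a type and less RNA per cell cannot be told apart.

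Members were unequally expressed, and a few of them held nearly all reads. Of the 43 members, 9 had at least 3 reads in every sample, 18 in some samples and 16 in none. A mean of 10 normalized counts over all samples was required for testing, which 18 members reached and 25 did not. The 18 tested members held 124771 reads, the 9 members detected somewhere but not tested held 550, and the 16 others held 25. All 43 together took 0.0244% to 0.0546% of the reads on genes in a library, and the 5 members with the highest levels took 78.6% to 87.6% of these.

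**Figure D1:**
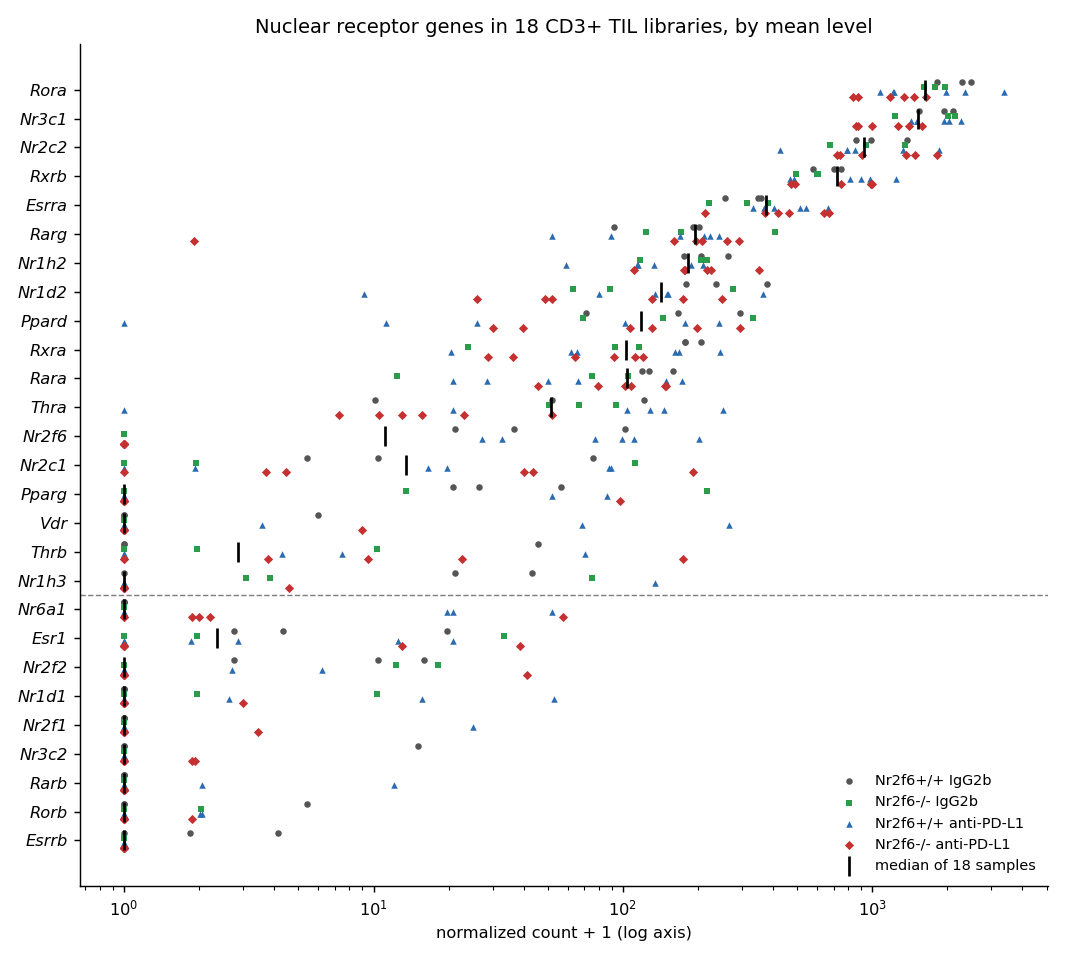
Normalized count + 1 (log axis) of the 27 nuclear receptor genes with at least 3 reads in some sample, ordered by mean level, with 1 point for each of the 18 samples (a sample at 0 sits at 1), color and shape for the group and a black bar for the median. The 18 genes above the dashed line were tested, and the 5 highest, Rora to Esrra, lie above 200 in every sample.

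The highest level belonged to *Rora*, the retinoic acid receptor-related orphan receptor α, with a median of 1629 normalized counts (lowest 835, highest 3385). The glucocorticoid receptor *Nr3c1* followed at 1529 (861 to 2260), and the ranges of the pair overlapped over most of their length. The ROR genes held 26.0% and the steroid receptors of the NR3C group with *Pgr* 24% of the reads on members. The relatives of *Rora* and *Nr3c1* were nearly silent. The mineralocorticoid receptor *Nr3c2* had 16 of its 18 reads in 1 sample (*Nr2f6*+/+ IgG2b replicate 1), the progesterone receptor *Pgr* had 3 reads in all, and *Rorb*, a ROR gene of the nervous system, had 9.

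Among the orphan receptors of the NR2C group, *Nr2c2* (testicular receptor 4) had the third highest level with a median of 926 (425 to 1843). Its relative *Nr2c1* (testicular receptor 2) had a median of 12.5 and a range from 0 to 190, and 3 samples held no read of it. The neural receptors *Nr2e1* and *Nr2e3* had 1 and 2 reads. *Nr2c2* is overlapped at its 3′ end by the gene *Mrps25* on the opposite strand, which had a mean of 888 normalized counts. Whether reads were counted by strand is not given in the sources used here, and the part of *Mrps25* in the reads of *Nr2c2* was not tested. Other pairs with such an overlap differed. *Rarb* had 13 reads in all where *Top2b* had a mean of 2854 normalized counts, and *Nr1i3* had 1 read where *Tomm40l* had 322. *Esrra* had 7820 reads where *Trmt112* had a mean of 738. How reads at these overlaps were counted was not tested.

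RXR genes encode the common dimer partner. *Rxrb* was the main form with a median of 722 (465 to 1244), *Rxra* had 101 (19.5 to 244), and *Rxrg* had 0 reads in all samples. Of the retinoic acid receptors, *Rarg* had a median of 193 and *Rara* of 102, and *Rarb* had 12 of its 13 reads in 1 sample. *Rarg* stood at 0.8996 in *Nr2f6*-/- anti-PD-L1 replicate 5 and between 51.0 and 407 in the other samples. The estrogen-related receptor *Esrra*, a regulator of mitochondrial genes, had 375 (211 to 671), whereas *Esrrb* and *Esrrg* had 4 reads and 1 read. *Esrra* also shares 73 exonic bases of its 3′ end with *Trmt112* on the other strand. Of the estrogen receptors, *Esr1* had 135 reads and *Esr2* none.

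Members that sense lipids differed in how evenly they were read. *Nr1h2* (LXRβ), an oxysterol receptor, was found in all samples with a median of 181 (58.1 to 352), and *Ppard*, a fatty acid sensor, in 17 samples with a median of 118 (0 to 330). *Nr1h3* (LXRα) and *Pparg*, which macrophages and fat cells use, both had a median of 0 and were detected in 6 and 8 samples. The vitamin D receptor *Vdr* was detected in 5 samples. *Ppara* had 4 reads and the xenobiotic receptor *Nr1i3* had 1 read. The bile acid receptor *Nr1h4*, the xenobiotic receptor *Nr1i2* and the hepatic factor *Hnf4a* had 0 reads throughout.

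*Nr1d2* (REV-ERBβ), a repressor of the circadian clock, had a median of 142 (8.16 to 376). Its paralog *Nr1d1* reached 3 reads in 3 samples, with 52.0 normalized counts at most. The thyroid hormone receptor *Thra* had a median of 50.3 (0 to 250) and *Thrb* of 1.87 (0 to 174). The 3′ ends of *Nr1d1* and *Thra* overlap on opposite strands over 263 exonic bases. Replicate 3 of *Nr2f6*+/+ with anti-PD-L1 had 239 reads of *Thra* and 0 of *Nr1d1*, and replicate 2 had 0 and 51. Of the gonadal, developmental and atypical receptors of the NR5A, NR6A and NR0B groups, *Nr6a1* had 163 reads, mostly in 4 samples, *Nr5a1* and *Nr5a2* had 5 reads each, *Nr0b2* had 2 and *Nr0b1* had 0, and *Hnf4g* had 1.

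The spread between samples of a group also differed between members. On the log2(normalized count + 1) scale, the residual SD was 0.33 for *Nr3c1*, 0.47 for *Rora*, *Rxrb* and *Esrra* and 0.59 for *Nr2c2*, all below the median of 0.88 over all tested genes. *Rxra* and *Rara* lay above that median at 1.05 and 1.04. *Nr2c1*, *Pparg* and *Thrb* had residual SDs of 2.83, 2.89 and 2.64, and their levels came from few samples.

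*Nr2f6* was read in all 9 samples of *Nr2f6*+/+ mice and in none of the 9 of *Nr2f6*-/- mice. With IgG2b the *Nr2f6*+/+ samples had 20.2, 101 and 35.7 normalized counts, and the *Nr2f6*-/- samples 0, 0 and 0. With anti-PD-L1 the *Nr2f6*+/+ samples had 76.2, 201, 26.1, 110, 97.8 and 31.7, and all 6 *Nr2f6*-/- samples had 0. The genotypes did not overlap under either antibody, so the libraries match their genotype labels. Against the floor of 3 reads per library, *Nr2f6*-/- samples had a mean at least 17.8-fold lower with IgG2b, and at least 30.6-fold lower under blockade. The exact two-sided permutation test gave p = 0.1 with IgG2b and p = 0.00216 with anti-PD-L1, the smallest values these group sizes allow.

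By its median of 87.0 normalized counts *Nr2f6* ranked 11 of the 43 members in *Nr2f6*+/+ mice with anti-PD-L1. It stood between *Rxra* at 113 and *Ppard* at 63.1, which differed from it by less than their spread, and far below *Nr2c2* at 824. Its mean there was 90.4 ± 63.9 (SD, n = 6), and it was 52.3 ± 42.9 (SD, n = 3) with IgG2b. This treatment difference was 0.76 (SE 1.30, 95% interval -1.90 to 3.42) on the log2 scale and did not pass the test (adjusted p = 0.948, limma). The gene lies at chr8:71374123-71381960 on the minus strand (GENCODE positions on GRCm38, the assembly of mm10). *Ocel1* overlaps its 3′ end from the other strand, and the genes share 1622 exonic bases. Whether this overlap lowers or raises the level of *Nr2f6* was not tested. With IgG2b, *Ocel1* had 77.9 to 364 normalized counts in *Nr2f6*+/+ and 409 to 745 in *Nr2f6*-/-. With anti-PD-L1 the ranges were 92.8 to 749 and 204 to 784 and overlapped. In the 9 *Nr2f6*-/- samples *Ocel1* was thus read while *Nr2f6* had 0 reads. Averaged over the antibodies, the genotype difference of *Ocel1* was 1.37 (SE 0.42) on the log2 scale and did not pass the test (adjusted p = 0.261, limma).

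The other COUP-TF genes, which bind the same kind of DNA element, were barely read in either genotype. *Nr2f1* was at 0 in 16 of 18 samples. The samples with reads were *Nr2f6*+/+ anti-PD-L1 replicate 6 with 24.02 normalized counts and *Nr2f6*-/- anti-PD-L1 replicate 3 with 2.43, which is under the floor. With IgG2b, *Nr2f2* had 1.76, 9.38 and 14.9 in *Nr2f6*+/+ and 17.1, 11.3 and 0 in *Nr2f6*-/-. With anti-PD-L1 it was at most 5.23 in *Nr2f6*+/+, and in *Nr2f6*-/- it stood at 40.1 in replicate 3 and at 0 in the 5 others. Groups overlapped for both genes. Neither reached the mean required for testing, so that a genotype difference of either was not tested.

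**Figure D2:**
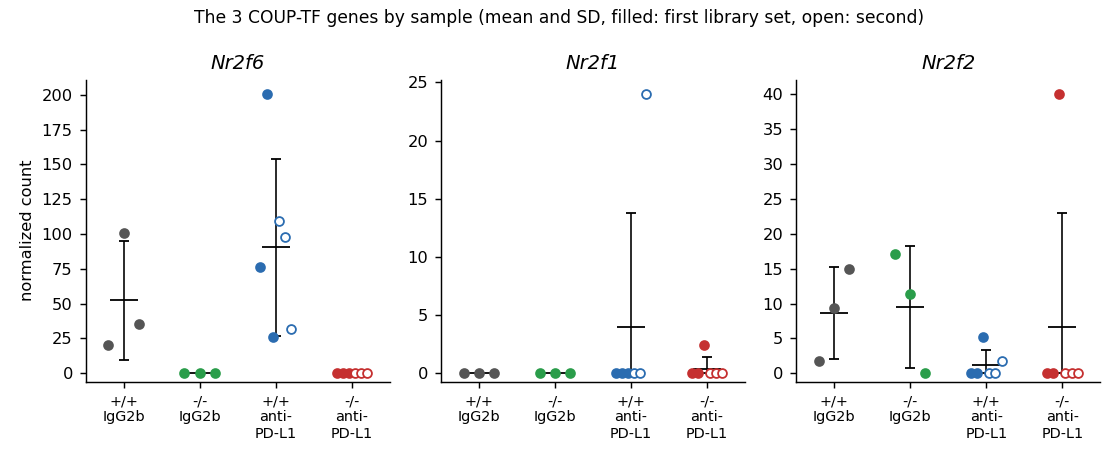
Normalized counts of Nr2f6, Nr2f1 and Nr2f2 in each sample of the 4 groups (filled points the first library set, open points the second set), with the mean as a horizontal bar and the SD as whiskers, cut at 0 where they would pass below it. Nr2f6 is at 0 in all 9 Nr2f6-/- samples, and Nr2f1 and Nr2f2 have their highest values, 24.02 and 40.1, in 1 sample each.

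With anti-PD-L1, *Nr2f6* was the 1 member called between genotypes among the 18 tested, and over all genes tested 0.175% were called. *Nr2f6* differed by -6.19 (SE 1.06) on the log2(normalized count + 1) scale (adjusted p = 0.00431, limma), and by -6.23 and -6.15 within the first and the second library set, where it did not pass the test. As the gene passed the requirement for testing through the *Nr2f6*+/+ samples alone, this fitted difference restates the 0 reads. Of the 17 other members, 0 were called by limma, by edgeR or by DESeq2, beside 0.183% and 1.57% of all genes by the latter tools. At an unadjusted p under 0.05, 0 of the 17 were higher in *Nr2f6*-/- beside 4.66% of all genes, and 2 were lower beside 5.07%. By sign alone 6 were higher and 11 lower, where 49.6% of all genes were higher, with a median log2 difference of -0.19 beside -0.0049 over all genes.

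In this comparison the members with the smallest unadjusted p were *Nr3c1*, *Rora* and *Vdr*, and their estimates lay below 0. The glucocorticoid receptor *Nr3c1* had 1427, 1730 and 2260 normalized counts (lowest, median and highest of 6) in *Nr2f6*+/+ and 861, 1128 and 1574 in *Nr2f6*-/-. The groups overlapped through replicate 4 of *Nr2f6*-/-, the highest of its group, and the 5 other *Nr2f6*-/- samples lay below every *Nr2f6*+/+ sample. The difference was -0.63 (SE 0.21, 95% interval -1.06 to -0.20) on the log2 scale, a ratio of 0.645, and did not pass the test (adjusted p = 0.289, limma). Within the library sets it was -0.50 and -0.76, and over 31 alternatives, 18 of which leave out 1 sample, its adjusted p lay between 0.144 and 0.750.

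*Rora* had 1074, 1599 and 3385 normalized counts (lowest, median and highest) in *Nr2f6*+/+ and 835, 1256 and 1646 in *Nr2f6*-/- with anti-PD-L1. The ranges overlapped, and the *Nr2f6*+/+ group spread further upward. The difference was -0.53 (SE 0.25, 95% interval -1.03 to -0.020) and did not pass the test (adjusted p = 0.496, limma). It was -0.25 and -0.80 within the library sets, and -0.33 without *Nr2f6*+/+ replicate 6, the highest sample. *Vdr* was detected in 3 of 6 *Nr2f6*+/+ samples, at most at 265, and in 1 of 6 *Nr2f6*-/- samples, at 7.99. Its difference was -2.14 (SE 1.33, adjusted p = 0.636, limma), and -1.06 without *Nr2f6*+/+ replicate 4. The mean of *Vdr* was 55.9 in *Nr2f6*+/+ with anti-PD-L1 and at most 1.66 in the other groups. It thus passed the requirement for testing through that group alone, and the sign of this difference follows from the requirement.

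Markers of cell types shifted along with these estimates, with overlap between the genotypes. With anti-PD-L1 the summed T cell markers (10 genes) ran from 59807 to 85433 normalized counts in *Nr2f6*+/+ and from 80459 to 94450 in *Nr2f6*-/-, and the summed melanoma markers (7 genes) from 2026 to 7149 and from 736 to 4371. Of the tested markers, 9 of 10 T cell genes had a higher, and 6 of 6 melanoma genes and 11 of 14 macrophage genes a lower estimate in *Nr2f6*-/-, and limma and edgeR called none of them. At an unadjusted p under 0.05 these were 4, 3 and 4 genes, beside 4.66% of all genes higher and 5.07% lower. DESeq2 called 2 T cell genes and 1 macrophage gene. The part of cell composition in the estimates of *Nr3c1* and *Rora* was not tested.

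**Figure D3:**
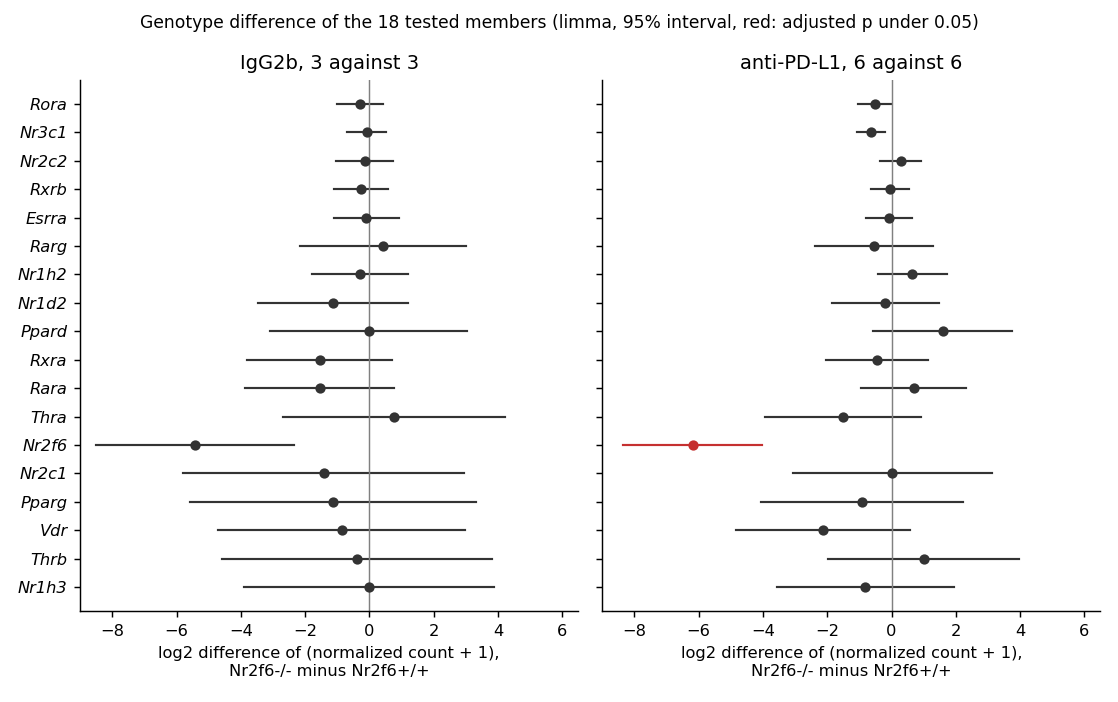
Difference between Nr2f6-/- and Nr2f6+/+ on the log2(normalized count + 1) scale for the 18 tested members, with its 95% interval from limma, for IgG2b (left) and anti-PD-L1 (right), ordered by mean level. Nr2f6 with anti-PD-L1 is the 1 red estimate with an adjusted p under 0.05, and intervals widen from the high members at the top to the low ones.

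With IgG2b, where each genotype had 3 samples, 0 of 18 members were called by limma or edgeR, as were 0% of all genes, and DESeq2 called *Nr2f6* alone among them, beside 0.75% of its genes. *Nr2f6* differed by -5.43 (SE 1.502, adjusted p = 0.579, limma). Of the 17 others, 2 were higher and 15 lower by sign, where 45.6% of all genes were higher, with a median log2 difference of -0.29 beside -0.064 over all genes, and 0 had an unadjusted p under 0.05, beside 5.35% of all genes. The groups did not overlap for 2 of these 17, *Rxra* and *Rara*, beside 14.2% of all genes.

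*Rxra*, the dimer partner of many members, had 205, 176 and 177 normalized counts in *Nr2f6*+/+ and 92.3, 115 and 22.9 in *Nr2f6*-/- with IgG2b. All *Nr2f6*+/+ samples were higher than all *Nr2f6*-/- samples. The difference was -1.55 (SE 1.10, 95% interval -3.80 to 0.70, adjusted p = 0.989, limma). *Rara*, a retinoic acid receptor, had 126, 158 and 118 against 11.4, 74.4 and 104, again without overlap, and differed by -1.54 (SE 1.13, adjusted p = 0.989, limma). *Nr1d2* had 178, 235 and 376 against 61.8, 87.6 and 275 and overlapped through replicate 3 of *Nr2f6*-/-, with a difference of -1.13 (SE 1.14, adjusted p = 0.989, limma). Without replicate 3 of *Nr2f6*-/- the estimate of *Rxra* was -0.84, and without replicate 1 those of *Rara* and *Nr1d2* were -0.59 and -0.69. With anti-PD-L1 the estimates of *Rxra*, *Nr1d2* and *Rara* were -0.45, -0.19 and 0.68, and each changed sign between the library sets, being -1.54, 0.89 and -0.032 within the first and 0.64, -1.26 and 1.40 within the second. With IgG2b summed macrophage markers (14 genes) were 22283 to 28762 in *Nr2f6*+/+ and 15343 to 21255 in *Nr2f6*-/-, summed melanoma markers 2495 to 4665 and 1156 to 2336, and summed T cell markers 56355 to 62679 and 66939 to 72459. Summed platelet markers (3 genes) were 2300 to 2611 and 268 to 703, with *Pf4*, a platelet chemokine, at a mean of 2190 and 417 and *Ppbp*, another one, at 77.9 to 452 and at 0. None of these sums overlapped between the genotypes, and neither did the summed B cell markers, which were low. The summed markers of dendritic cells, of fibroblasts and endothelium, of neutrophils and of NK cells did overlap between the genotypes with IgG2b. The part of cell composition in the levels of *Rxra* and *Rara* was not tested.

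**Figure D4:**
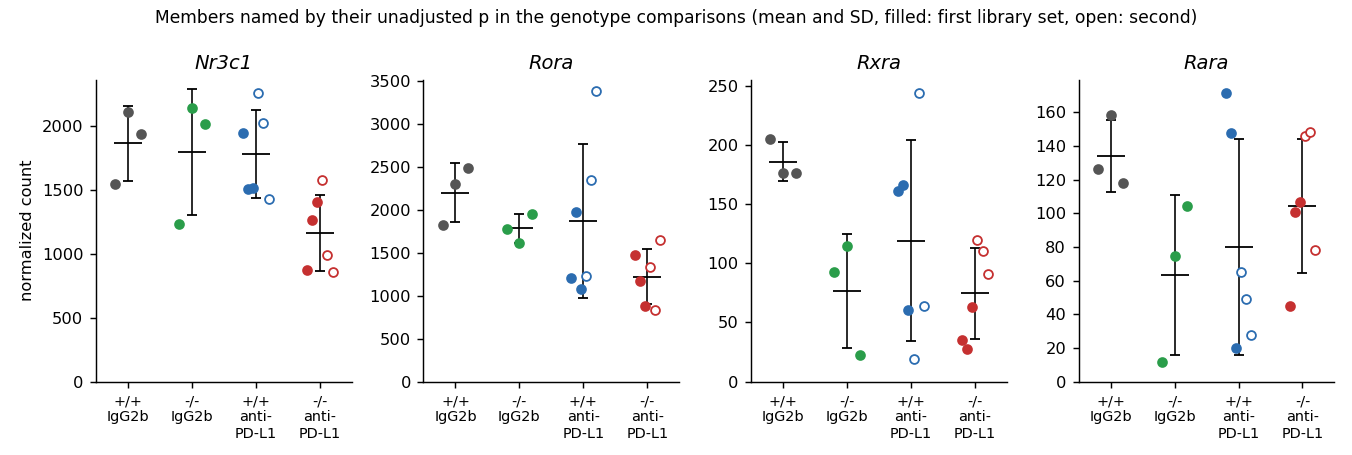
Normalized counts of Nr3c1, Rora, Rxra and Rara in each sample of the 4 groups (filled points the first library set, open points the second set), with the mean as a horizontal bar and the SD as whiskers. Nr3c1 in Nr2f6-/- with anti-PD-L1 reaches 1574 at most, and Rxra and Rara differ without overlap between the IgG2b groups and overlap between the anti-PD-L1 groups.

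Averaged over both antibodies, which uses all 18 samples, *Nr2f6* was again the 1 member called (-5.81, SE 0.92, adjusted p = 0.00398, limma), beside 0.05% of all genes. Here too the fitted difference restates the 0 reads in *Nr2f6*-/-. By edgeR *Nr2f6* did not pass (adjusted p = 0.0586, beside 0.0334% of genes called), and DESeq2 called it beside 1.54%. Of the 17 other members 0 were called by these tools and 0 had an unadjusted p under 0.05, beside 8.48% of all genes. An estimate above 0 was found for 4 and below 0 for 13, where 46.3% of all genes were above, and the smallest adjusted p was 0.599 (limma). Estimates above 0 belonged to *Ppard* (0.79, SE 0.92), *Thrb* (0.30, SE 1.26), *Nr1h2* (0.18, SE 0.45) and *Nr2c2* (0.068, SE 0.26). *Ppard* had a mean of 176 normalized counts in *Nr2f6*+/+ and 181 in *Nr2f6*-/- with IgG2b, and of 92.4 and 132 with anti-PD-L1, with SDs between 99.2 and 135. Among the 17, the unadjusted p was smallest for *Nr3c1* (-0.36, SE 0.18), *Rora* (-0.41, SE 0.21, adjusted p = 0.608, limma) and *Rxra* (-1.0002, SE 0.67, adjusted p = 0.739, limma).

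How large a rise in *Nr2f6*-/- could have gone undetected depends on the member. In the averaged comparison the upper end of the 95% interval lay below 1 on the log2(normalized count + 1) scale for 9 of the 17 members, and below 2 for 15. An upper end of 1 is 2-fold in normalized count + 1, and for members near 0 it does not bound the change in level. *Vdr*, at 0 in 13 of 18 samples, is among the 9 with an upper end of 0.85. With anti-PD-L1 alone the counts below 1 and below 2 were 7 and 12, and with IgG2b alone 7 and 9. *Rara* lay just below 1 in the average (0.99) and at 2.32 with anti-PD-L1. For the abundant members the bounds were close: 0.018 for *Nr3c1*, 0.028 for *Rora*, 0.36 for *Rxrb*, 0.53 for *Esrra* and 0.61 for *Nr2c2*. *Ppard* and *Thrb* had the widest room, with upper ends of 2.66 and 2.87. Members under the requirement for testing have no such bound, and the 16 members without 3 reads in any sample were below 3.64 normalized counts in each of the 18 libraries.

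Between anti-PD-L1 and IgG2b, 0 members were called by limma, edgeR or DESeq2 in either genotype, beside 0.242%, 0.158% and 0.801% of all genes by these tools in *Nr2f6*+/+ and 0.325%, 0.3% and 1.96% in *Nr2f6*-/-. IgG2b samples exist in the first library set only, so for the members named here the values within that set are given as well. Over all genes, limma called 8 in *Nr2f6*-/- within that set in place of 39. In *Nr2f6*+/+ it called 12 with the library set as a covariate in place of 29. Antibody differences of marker and target genes, given further below, take both sets together. In *Nr2f6*+/+ 5 of the 17 members other than *Nr2f6* were higher and 12 lower with anti-PD-L1, where 42.6% of all genes were higher, and 0 had an unadjusted p under 0.05, beside 7.24% of all genes. The smallest unadjusted p belonged to *Ppard* (-2.20, SE 1.30, adjusted p = 0.780, limma), *Pparg* (-2.95, SE 1.88, adjusted p = 0.804) and *Nr1d2* (-1.38, SE 0.99, adjusted p = 0.845). Within the first set these were -3.04, -2.83 and -2.14, and DESeq2 gave -0.93, -0.56 and -0.84. Without replicate 2 of the anti-PD-L1 group, *Ppard* and *Nr1d2* were at -1.19 and -0.70. *Ppard* had 70.3, 165 and 294 normalized counts with IgG2b and, with anti-PD-L1, a lowest of 0, a median of 63.1 and a highest of 241, so that the groups overlapped. *Pparg*, a fatty acid sensor of fat cells and macrophages, had 25.5, 55.2 and 19.9 with IgG2b, and with anti-PD-L1 it had 85.6 and 50.9 in replicates 1 and 5 and 0 in the 4 others.

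In *Nr2f6*-/-, 9 of the 17 were higher and 8 lower with anti-PD-L1, where 47.1% of all genes were higher, and *Nr3c1* alone had an unadjusted p under 0.05, beside 9.7% of all genes. *Nr3c1* had 1233, 2144 and 2014 normalized counts with IgG2b, and 861 to 1574 with anti-PD-L1 (-0.63, SE 0.26, adjusted p = 0.399, limma), and -0.59 within the first set. Replicate 1 of the IgG2b group lay within the anti-PD-L1 range. *Rora* differed by -0.58 (SE 0.30, adjusted p = 0.544) and *Nr1h3* by -2.90 (SE 1.65, adjusted p = 0.599), and within the first set by -0.63 and -3.27. Without replicate 2 of the IgG2b group *Nr1h3* was at -1.42. These comparisons use the same 6 *Nr2f6*-/- anti-PD-L1 samples as the genotype comparison under blockade, so that the low values of *Nr3c1* and *Rora* in those samples enter both.

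Macrophage markers differed between the antibodies. Their sum was 22283 to 28762 with IgG2b and 5792 to 12437 with anti-PD-L1 in *Nr2f6*+/+, and 15343 to 21255 and 4969 to 8750 in *Nr2f6*-/-. All 14 genes had an estimate below 0 in either genotype with a median of -3.26 and -3.40, and limma called 2 lower in each, *Lyz2* among them (-2.83 and -2.87, adjusted p = 0.000387 and 0.000318, limma). *Pparg* and *Nr1h3*, which macrophages express, were detected in 2 of 3 *Nr2f6*-/- IgG2b samples each and in 1 of 6 with anti-PD-L1. In *Nr2f6*+/+ *Pparg* was detected in 3 of 3 and 2 of 6, and *Nr1h3* in 2 of 3 and 1 of 6. The part of macrophage RNA in their levels was not tested.

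The difference between the blockade effects of the genotypes was tested for the 17 members other than *Nr2f6*, and 0 were called by limma, edgeR or DESeq2, beside 0%, 0% and 0.648% of all genes by these tools. An unadjusted p under 0.05 was found for 0 of them, beside 4.97% of all genes, and 11 had an estimate above 0, as had 53% of all genes. The smallest unadjusted p belonged to *Rara* (2.22, SE 1.39), *Nr3c1* (-0.55, SE 0.37) and *Thra* (-2.28, SE 2.06), with adjusted p of 0.974, 0.974 and 0.985 (limma). Within the first library set these estimates were 1.51, -0.42 and -0.53. Without replicate 1 of *Nr2f6*-/- with IgG2b that of *Rara* was 1.28, and without replicate 3 of *Nr2f6*+/+ with IgG2b that of *Thra* was -1.29. *Thra* had a median of 115 normalized counts in *Nr2f6*+/+ and 13.3 in *Nr2f6*-/- with anti-PD-L1, with ranges of 0 to 250 and 6.30 to 51.1 that overlapped through the *Nr2f6*+/+ replicates 1 and 2.

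Among the genes of proteins that nuclear receptors recruit, limma called none, and their levels differed widely. Of 15 corepressors 14 were tested and 0 called in any of the 6 comparisons by limma, edgeR or DESeq2, with 0 to 3 at an unadjusted p under 0.05 in a comparison. The count of 3 was for blockade in *Nr2f6*+/+, beside 7.24% of all genes. With anti-PD-L1 6 corepressors had a higher and 8 a lower estimate in *Nr2f6*-/- (median -0.070). The 2 most abundant were *Bcl11b*, a zinc finger factor of the T lineage that binds COUP-TF proteins, and *Tbl1xr1*, a subunit of the NCoR complex, with means of 4426 and 3294 normalized counts. *Ncor1*, the NCoR scaffold, had a mean of 2166, whereas *Zfpm2* had 1.21 in its highest sample. All 15 coactivators were tested and 0 called by limma or edgeR, with 1 to 4 at an unadjusted p under 0.05, with *Pnrc1* (5195) and the Mediator subunit *Med1* (1649) the most abundant. The count of 4 was between genotypes with anti-PD-L1, 3 higher and 1 lower, beside 4.66% and 5.07% of all genes. DESeq2 called 1 coactivator in the comparison averaged over antibodies (*Pnrc1*, adjusted p = 0.0396) and 1 with blockade in *Nr2f6*-/- (*Ppargc1b*, adjusted p = 0.0277).

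Among genes known as targets of members, 1 was called by limma. *Dusp1*, a MAP kinase phosphatase induced by glucocorticoids and by many other stimuli, had 4565 to 6791 normalized counts with IgG2b and 1643 to 3089 with anti-PD-L1 in *Nr2f6*+/+, and 7365 to 8860 against 2497 to 5143 in *Nr2f6*-/-. The antibody groups did not overlap in either genotype. *Dusp1* was lower with anti-PD-L1, with a log2 difference of -1.47 (SE 0.22, adjusted p = 0.000774, limma) in *Nr2f6*+/+ and of -1.12 (SE 0.22, adjusted p = 0.0146, limma) in *Nr2f6*-/-. Between genotypes with anti-PD-L1 its estimate was 0.82 (SE 0.18, adjusted p = 0.0540, limma), the opposite sign to that of *Nr3c1*, and DESeq2 called it (adjusted p = 0.00204). *Ddit4*, another glucocorticoid-induced gene, had an estimate of -1.19 (SE 0.27, adjusted p = 0.0618, limma) there and was called by DESeq2 as well (adjusted p = 0.00041). The 5 other tested genes of this list, *Fkbp5* and *Tsc22d3* among them, were not called in any comparison by limma or DESeq2. By edgeR 1 gene of this list was called between genotypes with anti-PD-L1, and 1 between antibodies in either genotype. Averaged over the antibodies, DESeq2 called 2 genes of the list between genotypes, and limma and edgeR called 0.

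In the other lists limma called 0 genes in any comparison: 0 of 13 tested clock genes, 0 of 8 LXR targets, 0 of 4 RAR targets and 0 of 6 PPAR targets. At an unadjusted p under 0.05 there were at most 2, 4, 2 and 1 of these in a comparison, edgeR called 0 and DESeq2 called 1 clock gene. Each of these highest counts was reached for blockade in *Nr2f6*+/+, beside 7.24% of all genes. The most abundant clock genes were *Bhlhe40* (mean 4247) and *Nfil3* (1116), and *Bhlhe40* had an estimate of -1.07 with blockade in *Nr2f6*-/- (adjusted p = 0.152 by limma and 0.0319 by DESeq2). The most abundant LXR targets were *Scd2* (1224) and *Apoe* (867), PPAR targets *Plin2* (863) and *Cpt1a* (789) and RAR targets *Ccr9* (123) and *Tgm2* (110). *Apoe*, which is also on the macrophage marker list, had 2145 to 3393 normalized counts with IgG2b and 41.8 to 741 with anti-PD-L1 in *Nr2f6*+/+, and 1495 to 1735 against 2.005 to 527 in *Nr2f6*-/-, and did not pass the test (adjusted p = 0.191 and 0.0510, limma). *Dhrs3*, a retinal reductase induced by retinoic acid and named here after its values were seen, had 142 to 388 in the 6 IgG2b samples and 0 to 41.8 in the 12 anti-PD-L1 samples (adjusted p = 0.0515 in either genotype, limma). None of the 3 VDR targets was tested, and their summed level was 1.04 normalized counts at most in any sample. Receptor activity and cell composition cannot be told apart in these levels.

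What the expressed members share beyond level was looked up in their promoters. The 250 bases before the start given by RefSeq (GRCm38.p6) were at hand for 39 members, 16 tested and 23 not tested, and for genes with several starts the first listed was used. The windows are shown for the deleted gene, for the most abundant member, for a COUP-TF relative that was barely read and for a member at 0, 5′ to 3′ on the strand of the gene, with each CpG in capitals.

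Nr2f6, chr8:71381953-71382202, minus strand: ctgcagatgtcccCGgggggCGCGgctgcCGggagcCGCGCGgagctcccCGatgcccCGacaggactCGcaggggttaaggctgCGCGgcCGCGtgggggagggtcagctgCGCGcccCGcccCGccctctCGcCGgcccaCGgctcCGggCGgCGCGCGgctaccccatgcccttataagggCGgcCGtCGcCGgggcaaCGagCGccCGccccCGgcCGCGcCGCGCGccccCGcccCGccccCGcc
Rora, chr9:68653536-68653785, plus strand: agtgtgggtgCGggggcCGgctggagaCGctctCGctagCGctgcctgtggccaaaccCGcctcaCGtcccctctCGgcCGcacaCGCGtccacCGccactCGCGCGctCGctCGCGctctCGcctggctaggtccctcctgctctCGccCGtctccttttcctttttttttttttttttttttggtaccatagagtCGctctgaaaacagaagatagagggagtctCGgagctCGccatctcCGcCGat
Nr2f2, chr7:70366747-70366996, minus strand: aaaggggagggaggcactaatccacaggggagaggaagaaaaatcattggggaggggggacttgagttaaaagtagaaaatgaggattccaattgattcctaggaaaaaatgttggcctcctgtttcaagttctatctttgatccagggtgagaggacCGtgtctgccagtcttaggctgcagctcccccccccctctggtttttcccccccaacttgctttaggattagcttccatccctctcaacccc
Nr1i2, chr16:38294825-38295074, minus strand: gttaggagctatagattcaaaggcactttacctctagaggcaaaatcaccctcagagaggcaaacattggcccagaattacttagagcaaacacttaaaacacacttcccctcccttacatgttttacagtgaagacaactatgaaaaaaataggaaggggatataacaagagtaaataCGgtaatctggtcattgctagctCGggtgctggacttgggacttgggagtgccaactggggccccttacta

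*Nr2f6* had 42 CpG in its window, the most of all 39 members, *Rora* had 26, *Nr2f2* had 1 and *Nr1i2* had 2. The tested members had a median of 21 CpG (7 to 42) and the members not tested a median of 6 (1 to 27). At least 10 CpG were found in 15 of 16 tested members (93.8%), beside 75.1% of all tested genes, and in 8 of 23 members not tested (34.8%), beside 25.1% of all genes of the table not tested. Exceptions went both ways. *Ppara* had 27 CpG and 4 reads, *Nr2f1* had 22 and 30 reads, and *Nr1h3* was tested with 7.

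**Figure D5:**
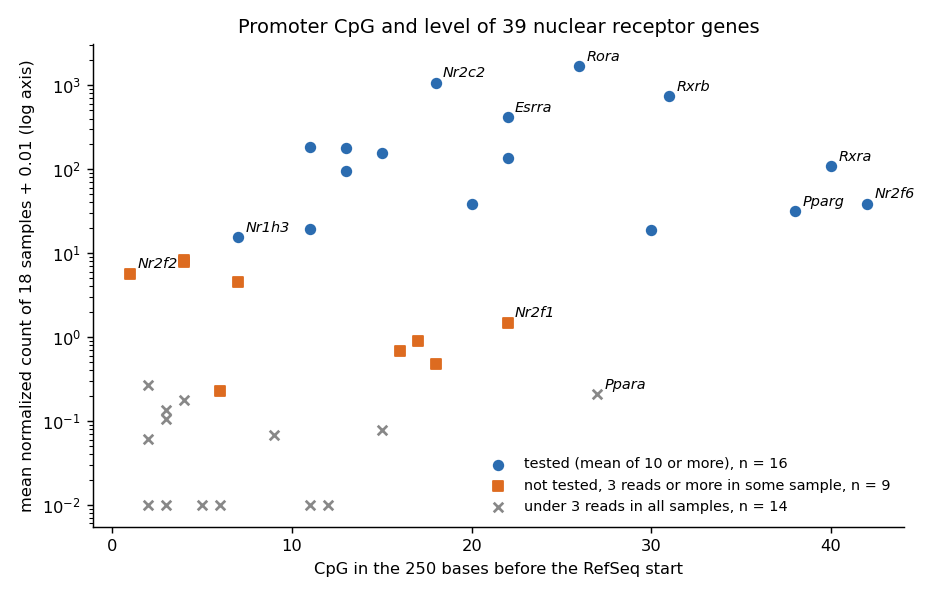
Mean normalized count over 18 samples + 0.01 (log axis) against the number of CpG in the 250 bases before the RefSeq start for 39 nuclear receptor genes, with color and shape for tested members, members with 3 reads in some sample and members under 3 reads in all. Tested members lie at 7 CpG or more and members at 0 reads at 12 or fewer.

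The motif AGGTCA, the half-site that most receptors of this superfamily read, was searched on both strands in the same windows. It was found in 7 of 39 members (17.9%) and in 13.8% of the windows of all genes. *Nr1d2*, *Rarg*, *Thrb* and *Pparg* held it among the tested members (4 of 16), and *Nr2f6*, *Nr2f1* and *Nr2f2* did not. AGGTCANAGGTCA, the direct repeat spaced by 1 base that COUP-TF dimers can bind, was found in 0 members and in 0.037% of all windows. A match to these letters is a description of the window and not a site.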

How the data were processed

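RNA of 18 sorted TIL samples was sequenced as 3′ end libraries. Per the labels and the study's methods, the authors trimmed reads with Cutadapt and Trimmomatic, removed reads under 22 nucleotides, mapped to mm10 with STAR and the rest with Bowtie2, kept the primary alignment, counted with HTSeq-count and scaled with DESeq2. Versions, annotation and strand setting are not given in the sources used here. The deposited values are a signal, read counts divided by a size factor per library. All values (100%) were whole multiples of 1 read within 0.01 read, so reads were recovered. Libraries held 12473391 to 18609482 reads, and no pair of columns among 153 was identical. There are no molecular identifiers, so the floor of 3 reads covers counting error only.

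Group means of log2(normalized count + 1) were compared with limma 3.58.1 (R 4.3.3, eBayes with trend, two-sided, 95% intervals) in all 18 samples, over the 11992 genes with a mean of at least 10, with Benjamini-Hochberg adjustment at 0.05. The scale understates changes of low genes. Single levels of *Nr2f6* were compared by an exact permutation test (scipy 1.17.1). Alternatives were edgeR 4.0.16 and DESeq2 1.42.0 on recovered reads, TMM and quantile scaling, other pseudocounts and filters, the library sets, a replicate block and each sample left out. The fits were tested on simulated data. Members named with full statistics are *Nr2f6*, any member called and, in each comparison, the 3 with the smallest unadjusted p. Of each list the called genes are named, or else the 2 with the highest mean. Members and lists were chosen with earlier results of these data known. Overlaps of gene ends were looked up in GENCODE within the last 500 bases, and promoters come from RefSeq (GRCm38.p6). Python 3.11.15, pandas 2.3.3 and matplotlib 3.10.9 were used.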

Additional observations from a re-analysis of the deposited data

Results flagged for a closer look

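In groups of 6, the highest sample of a tested member stood far from the rest in 9 of 35 groups by Dixon's 95% criterion, where chance gives about 1 in 20 for normally distributed values. These counts are skewed, and in 4 of the 9 groups the other samples were all at 0, so that any reads at all met the criterion and the share is not set against chance. All 9 were low members. In *Nr2f6*-/- with anti-PD-L1, replicate 1 had 190 normalized counts of *Nr2c1* (next highest 42.5), 51.1 of *Thra* (next 21.98) and 96.7 of *Pparg* (next 0). Replicate 4 of that group had 174 of *Thrb* (next 21.6) and 7.99 of *Vdr* (next 0), and replicate 5 had 3.60 of *Nr1h3* (next 0). In *Nr2f6*+/+ with anti-PD-L1, replicate 2 had 134 of *Nr1h3* (next 0), replicate 4 had 265 of *Vdr* (next 67.3) and replicate 6 had 69.5 of *Thrb* (next 6.496). The sources of these single high samples were not tested.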

How the results depend on the processing

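The call of *Nr2f6* with anti-PD-L1 held when any 1 sample was left out (members called 1 to 1, log2 difference -6.48 to -5.90, adjusted p 0.00413 to 0.0150, limma). Each of these fits restates the 0 reads of the *Nr2f6*-/- samples. Members called were 0 with the filter at a mean of 50, which *Nr2f6* does not reach, within the first library set (-6.23, adjusted p = 0.0821, limma) and within the second set (-6.15, adjusted p = 0.450, limma), each with 3 samples a genotype there. With IgG2b 1 member was called by DESeq2 (*Nr2f6*, -8.18, adjusted p = 0.00571). Averaged over antibodies, 0 were called with the filter at 50 and by edgeR (*Nr2f6*, -9.17, adjusted p = 0.0586), and 1 to 1 with a sample left out (-6.06 to -5.50). The difference in *Nr2f6* level between genotypes with anti-PD-L1 was 101 normalized counts in the first set (exact permutation p = 0.1, the smallest possible) and 68.3 to 103 with a sample left out, and 27.9 to 68.4 with IgG2b. In the other 4 comparisons members called stayed at 0 to 0 with a sample left out. The 17 other members were called in 0 settings, with a smallest adjusted p of 0.144 (*Nr3c1*, DESeq2, anti-PD-L1), and the 534 fold changes of named ones, which had the smallest p, all kept their sign and missed the threshold. Of all 17, the sign held in every setting for 7 with anti-PD-L1, 6 with IgG2b, 8 averaged, 10 and 9 for blockade in *Nr2f6*+/+ and *Nr2f6*-/-, and 11 for their difference. Over all genes DESeq2 called 184 where limma called 21 with anti-PD-L1, 88 against 0 with IgG2b, 181 against 6 averaged, 94 against 29 and 230 against 39 for blockade in *Nr2f6*+/+ and *Nr2f6*-/-, and 76 against 0 for their difference. Replicate numbers do not pair samples: deviations of 21 same-numbered pairs correlated at -0.029 to 0.037. With the replicate number as a block, members called were 1, 0, 1, 0, 0 and 0 as without it, the adjusted p of *Nr2f6* with anti-PD-L1 was 0.0117, and genes called for blockade in *Nr2f6*+/+ were 12 in place of 29. A fit of only the groups compared does not exist for the average and the interaction. With 10 reads as the floor, 8 members were detected in all samples, 17 in some and 18 in none, and 12 reach a mean of 50.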
